A study of Mus musculus with 8 samples.

Results

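The transcripts of 10 adhesion and homing genes were followed in mouse multipotent progenitors (MPPs): the integrin alpha subunits Itga4, Itga5, Itga6, Itgal and Itgam, the integrin beta subunits Itgb1, Itgb2 and Itgb7, the chemokine receptor Cxcr4 and the selectin ligand Selplg. They were chosen by gene symbol, and all 10 had a row in the table of 37980 gene rows. All 10 also passed the filter on low values, which kept genes with 10 or more normalised counts in 4 or more libraries and left 11451 genes. RNA of 1000 sorted MPPs was amplified and sequenced for each of 4 NA MPP libraries and 4 WT MPP libraries, named here NA1 to NA4 and WT1 to WT4. NA MPPs carried the fusion of Nup98 with the homeodomain of Hoxa10, from NA LSL/+; Vav-Cre mice in which Cre frees the fusion at the Rosa26 locus in blood cells, and WT MPPs came from age-matched CD45.2 mice without the fusion. Both groups were C57BL/6 bone marrow cells with the gate Lin-CD48-ckit+Sca1+CD135+CD150-. The ages are not given. Since Vav-Cre acts throughout the blood system, the fusion was present before the MPP stage and in the other blood cells of the NA mice. The labels do not say whether the libraries of a group came from separate mice, so p-values measure only the spread between these samples, which may be technical.

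Integrins are surface receptors made of 1 alpha and 1 beta subunit, and an alpha subunit reaches the cell surface only with its partner. Blood progenitors use alpha4 and beta1 together to bind Vcam1 and fibronectin, alpha5 and beta1 to bind fibronectin, and alpha6 and beta1 to bind laminin, while the beta2 integrins bind Icam molecules. Homing to and retention in the marrow also depend on Cxcr4, the receptor of the chemokine Cxcl12, and on selectin ligands such as Selplg, which let cells roll along vessel walls. The comparison of NA with WT MPPs asked which of these transcripts differ when MPPs carry the fusion.

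Estimated depth lay between 3876908 and 4916947 reads per library, and NA4, WT2 and WT3 were the 3 shallowest. Hoxa10, part of the fusion, had 324 ± 32 normalised counts in the NA and 139 ± 8.0 in WT libraries (SD of the 4 libraries, limma adjusted p = 2.57e-05). The fourth library of each group lay closest to a weighted sum of the other libraries of its group, with a median deviation of 7.41% in NA4 against 8.02% to 12.7% in NA1 to NA3 and 4.86% in WT4 against 7.03% to 9.93% in WT1 to WT3, so results are also given without both. Whether these are independent samples was not tested, and if they are not, n is below 4 and the p-values given here are too small. Sex-linked transcripts separated the groups: Xist was at 0.940 to 2.80 normalised counts in the NA and 869 to 1285 in WT libraries, and the Y-linked Eif2s3y at 516 to 666 and at most 0.888. No sex is given in the labels, and the effects of sex and genotype cannot be told apart in any comparison here. Of the genes of the gate, Kit (adjusted p = 0.169), Flt3, which encodes CD135 (0.554), and Slamf1, which encodes CD150 and was at 3.69 to 47.9 normalised counts in NA and 16.9 to 30.6 in WT libraries (0.570), passed no test of a difference. Ly6a, the Sca1 gene, was lower in NA MPPs (log2 fold change −0.28, adjusted p = 0.0257), and Cd48, the product gated against, was low in both groups and lower in NA (−1.58, adjusted p = 0.00711).

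The start sites of the genes whose results differ in direction are shown first, as the 250 bases before the annotated start, 5′ to 3′ on the strand of the gene. RefSeq promoter windows on GRCm38.p6 were matched for 6 of the 10 genes, but not for Itga6, Itgal, Itgb2 or Selplg. Itgal, the transcript that fell the most, is thus not shown. The windows of the risers Itgb1 (chr8:128685404-128685653, plus strand) and Cxcr4 (chr1:128592300-128592549, minus strand) stand beside that of Itga4 (chr2:79255176-79255425, plus strand), which fell. The call of Itga4 was lost under 5 of 20 alternative settings. Capitals mark the core letters of ETS sites, GGAAG, on either strand. They also mark the letters of a GC box, which are GGGCGG, and those of the TATA box, which are TATAAA, again on either strand.
Itgb1: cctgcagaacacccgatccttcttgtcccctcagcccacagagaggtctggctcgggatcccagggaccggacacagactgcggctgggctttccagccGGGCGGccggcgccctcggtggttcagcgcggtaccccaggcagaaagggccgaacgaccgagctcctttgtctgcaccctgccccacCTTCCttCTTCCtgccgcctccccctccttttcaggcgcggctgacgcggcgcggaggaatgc
Cxcr4: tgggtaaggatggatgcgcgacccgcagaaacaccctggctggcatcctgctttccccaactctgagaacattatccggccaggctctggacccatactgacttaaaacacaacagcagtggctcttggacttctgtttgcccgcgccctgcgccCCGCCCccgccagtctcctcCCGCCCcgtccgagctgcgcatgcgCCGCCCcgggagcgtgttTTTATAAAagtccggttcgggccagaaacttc
Itga4: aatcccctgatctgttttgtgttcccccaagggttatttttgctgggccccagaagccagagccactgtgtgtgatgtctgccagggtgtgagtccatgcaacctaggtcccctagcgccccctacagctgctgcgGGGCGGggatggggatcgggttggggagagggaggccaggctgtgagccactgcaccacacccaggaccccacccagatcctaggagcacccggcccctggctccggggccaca
The Itgb1 window held 2 matches of GGAAG and 1 of GGGCGG, the Cxcr4 window 3 of GGGCGG and 2 of TATAAA that overlap each other on opposite strands, and the Itga4 window 1 of GGGCGG. Over 32851 windows of this length, 64.1% held GGAAG, 32.7% GGGCGG and 12.4% TATAAA. The GC content was 68.0% for Itgb1, 61.2% for Cxcr4 and 64.0% for Itga4, against a median of 52.4% over all windows. Letters of a HOX-PBX site (TGATTNAT), a MEIS site (TGACAG), an AP-1 site (TGANTCA) and a CCAAT box (CCAAT) were searched on both strands and matched in none of the 6 windows, while 2.82%, 15.9%, 6.75% and 33.8% of all windows held them. The homeobox core TAAT, held by 54.9% of all windows, matched once each in Cxcr4, Itga5 and Itgam and not in Itgb1, Itga4 or Itgb7. These are matches of letters in a fixed window, not sites shown to be bound.

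Of the 10 transcripts, 4 had an adjusted p under 0.05 in the limma test of NA against WT, when 17.9% of all tested genes did so. Itgb1 and Cxcr4 rose, when 10.1% of all tested genes were higher, and Itgal and Itga4 fell, when 7.87% were lower. For 6 of the 10 the NA and WT values were fully separate, which adds Itga6 and Selplg to these 4, against 22.0% of all tested genes. The median log2 fold change of the 10 was −0.11 beside −0.01 over all tested genes, and the 4 calls went in both directions. In bulk RNA of sorted cells, a change in the share of some cell type and a change of RNA within cells cannot be told apart.

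**Figure D1:**
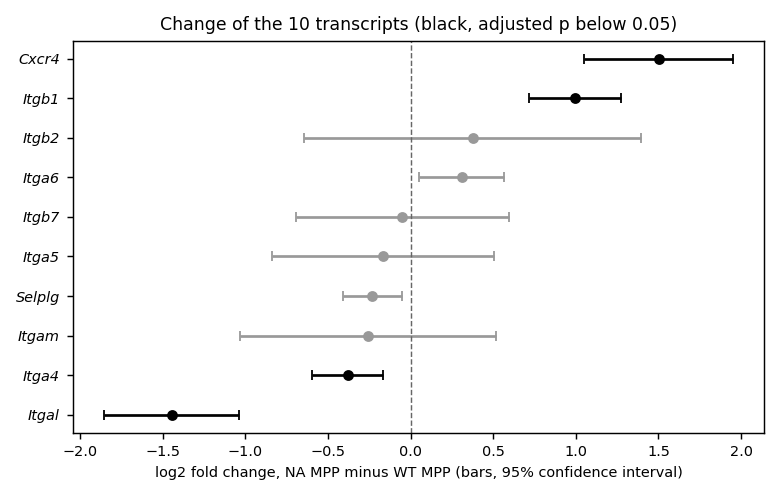
Log2 fold change, NA minus WT MPPs, of the 10 transcripts on the log2(normalised count + 1) scale, with points for the limma estimate (n = 4 libraries each) and bars for the 95% confidence interval. Cxcr4 at 1.5 and Itgb1 at 1.0 lie above 0 and Itga4 at −0.38 and Itgal at −1.45 below it in black (adjusted p under 0.05), and the other 6 are grey.

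Itgb1 encodes the beta1 subunit, the common partner of alpha4, alpha5 and alpha6, at chr8:128685654-128733200 (mm10, plus strand). It was at 398, 533, 451 and 471 normalised counts in NA1 to NA4 and at 245, 260, 190 and 233 in WT1 to WT4. The lowest NA library lay well above the highest WT library. The group means were 463 ± 55.9 and 232 ± 30.2 (SD, n = 4 each), a ratio of 2.0, and the log2 fold change was 1.0 with a standard error of 0.131 and a 95% confidence interval of 0.72 to 1.28 (limma adjusted p = 0.00019). The rise passed the test under each of 20 alternatives, with log2 fold changes of 0.90 to 1.07 and adjusted p from 0.000123 to 0.00652. It was 0.94 among the deeper libraries and 1.08 among NA4, WT2 and WT3, the shallower ones. None of the 50-base words of its transcripts was shared with another gene.

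Itgb7 encodes the other beta subunit that pairs with alpha4, in a receptor of lymphocytes for the gut addressin Madcam1, and lies at chr15:102215995-102231944 (minus strand). Its NA libraries held 97.1, 54.5, 77.6 and 79.1 normalised counts and its WT libraries 100.3, 99.7, 38.7 and 95.9. The groups overlapped, and WT3 stood far below the other WT libraries. The log2 fold change of −0.05 had an interval of −0.69 to 0.59 (limma adjusted p = 0.931), and it turned positive under 6 of the 20 alternatives. Itgb2 encodes the beta2 subunit of leukocyte integrins, at chr10:77530252-77565708 (plus strand). It was at 165, 112, 57.2 and 131 normalised counts in the NA and 130, 132, 22.8 and 122 in the WT libraries, so the third library was the lowest of each group. The log2 fold change was 0.38 with an interval of −0.64 to 1.40 (limma adjusted p = 0.620), −0.23 without WT3 and 0.07 without the third library of both groups. Of the 3 beta subunits, the test was passed by Itgb1, while the intervals of Itgb2 and Itgb7 each include changes of over 0.5 on the log2 scale in either direction.

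Among the alpha subunits, Itgal fell the most. It encodes the alphaL chain of the leukocyte integrin LFA-1 and lies at chr7:127296260-127335138 (plus strand). Its transcript was at 47.6, 48.9, 37.9 and 48.4 normalised counts in the NA libraries and at 121, 126, 117 and 139 in the WT libraries. Every WT library lay above 110 and every NA library below 50 normalised counts. The means were 45.7 ± 5.25 and 126 ± 9.71 (SD, n = 4 each), so WT MPPs held 2.75 times as much, and the log2 fold change was −1.45 with a standard error of 0.191 and an interval of −1.85 to −1.04 (limma adjusted p = 0.000201). The fall passed the test under all 20 alternatives, with adjusted p from 0.00014 to 0.00945, and was −1.52 in the deeper and −1.31 in the shallower libraries. Some markers of other blood cells were also lower in NA MPPs. Of the 10 granulocyte markers 8 were above 0 and 4 were tested, and Mpo (−1.50) and Prtn3 (−0.41) were called lower. Their summed level was 1390 to 1709 normalised counts in NA and 1754 to 2638 in WT libraries, of which Prtn3 alone made up 1371 to 1677 and 1711 to 2291. Of the 8 monocyte and macrophage markers, all above 0, 3 were tested and Irf8 (−1.06) was called lower, with sums of 1737 to 1807 and 1837 to 2152. Irf8 itself, at 13.2 to 30.8 in NA and 37.3 to 58.1 in WT libraries, was a small part of these sums. Of the 8 erythroid markers 7 were above 0, and Hbb-bt (−1.99), the only one tested, was called lower, with sums of 35.4 to 64.9 and 147 to 296. The sums overlapped between groups for the 8 T cell markers (2 above 0, both tested and Lck called lower at −0.64), at 113 to 200 and 183 to 302, and for the 8 B cell markers (5 above 0, 1 tested and not called), at 101 to 239 and 182 to 269. The megakaryocyte, NK cell and mast cell sums were not lower in NA MPPs and are given beside Cxcr4. Cd3e, Cd3d, Cd3g and Trac of T cells, Ms4a1 and Pax5 of the B lineage, and Elane and Ly6g of granulocytes and their precursors were at 0 in all 8 libraries. The lineage antibodies of the sort, which include those against CD3e, B220, Gr1, Mac1 and Ter119, remove cells that carry these antigens. The part of other cells in the fall of Itgal was not tested.

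Itga4 encodes the alpha4 chain, which binds Vcam1 with beta1 and Madcam1 with beta7, at chr2:79255426-79333123 (plus strand). The NA libraries held 543, 499, 474 and 449 normalised counts and the WT libraries 691, 632, 568 and 669. The highest NA and the lowest WT library were 543 and 568, so the groups were apart by a small gap. The means were 491 ± 40.3 and 640 ± 53.6 (SD, n = 4 each), and the log2 fold change was −0.38 with a standard error of 0.101 and an interval of −0.60 to −0.16 (limma adjusted p = 0.0188). This call was lost under 5 of the 20 alternatives, with adjusted p of 0.0597 without a variance trend, 0.069 without NA4, 0.0606 without WT1, 0.0724 without WT4 and 0.206 without the fourth library of both groups. Exons of Itga4 overlap those of Cerkl on the opposite strand, and the use of strand in counting is not stated, so reads of the shared stretch cannot be assigned. Cerkl itself was at 188 to 215 normalised counts in the NA and 181 to 234 in WT libraries (log2 fold change −0.04, limma adjusted p = 0.884).

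Itga6 encodes the alpha6 chain of laminin receptors, at chr2:71745616-71858416 (plus strand). It was at 507, 688, 514 and 608 normalised counts in the NA and 485, 397, 477 and 503 in the WT libraries. All NA values lay above all WT values, though 507 and 503 nearly touch. With means of 579 ± 85.9 and 466 ± 46.8 (SD, n = 4 each) the log2 fold change was 0.31 with an interval of 0.05 to 0.57, and the adjusted p of 0.0908 (limma) missed the threshold, as it did under all 20 alternatives. Itga5, the alpha5 chain of the fibronectin receptor (chr15:103344286-103366763, minus strand), was at 44.8, 32.9, 55.4 and 50.8 in NA and 68.4, 74.7, 44.4 and 29.3 in WT libraries. The WT values spanned the NA values on both sides. Its log2 fold change was −0.17 with an interval of −0.84 to 0.50 (limma adjusted p = 0.745) and 0.01 without WT2.

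Itgam encodes the alphaM chain of Mac-1, a marker of myeloid cells, at chr7:128062640-128118491 (plus strand). An antibody against Mac-1 was part of the lineage mixture of the sort, so the gate itself removed cells with the protein in both groups. The transcript was the lowest of the 10, at 15.9, 24.4, 14.8 and 18.9 normalised counts in the NA and 20.4, 22.6, 15.9 and 31.1 in WT libraries, which is 14 to 35 estimated reads. The groups overlapped. The log2 fold change was −0.26 with an interval of −1.03 to 0.51 (limma adjusted p = 0.655), so no difference was detected. The value may also be uncertain, since in GENCODE M21 66.3% of the 50-base words of Itgam are shared with other genes. Its exons there overlap those of the annotated gene Gm49368 on the same strand. No row of the deposited values bears the name Gm49368, and whether the overlap touched the Itgam value was not tested.

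Cxcr4 showed the largest log2 fold change of the 10. It lies at chr1:128588199-128592293 (minus strand). The NA libraries held 256, 179, 184 and 208 normalised counts and the WT libraries 64.8, 54.4, 106 and 70.1. WT3 was the highest WT library and still lay below the lowest NA library. The means were 206 ± 35.2 and 73.8 ± 22.4 (SD, n = 4 each), a ratio of 2.80, with a log2 fold change of 1.5, a standard error of 0.210 and an interval of 1.05 to 1.95 (limma adjusted p = 0.000298). It passed the test under all 20 alternatives, with log2 fold changes of 1.37 to 1.74 and adjusted p from 0.000104 to 0.00845, and was 1.58 in the deeper and 1.44 in the shallower libraries. Fos, an immediate early gene, moved in the same direction, from 804 to 3154 normalised counts in WT to 19676 to 21297 in NA libraries. The 6 megakaryocyte markers were all above 0 and tested, and none was called. Their summed level was 2774 to 3061 in NA and 2564 to 2701 in WT libraries. For the 6 NK cell markers the sum was 154 to 171 and 120 to 153. Of these 6, 4 were above 0, with Ncr1 and Gzma at 0 in all libraries, and 2 were tested and not called. The 6 mast cell and basophil markers (3 above 0, 1 tested and not called) gave 17.9 to 26.1 and 1.14 to 19.5. The 8 endothelial and stromal markers (7 above 0 with Cdh5 at 0, 3 tested and none called) gave 236 to 310 and 215 to 263. The part of these in the rises of Cxcr4 and Itgb1 was not tested.

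Selplg encodes PSGL-1, the protein backbone that carries the sugars bound by selectins, at chr5:113818536-113832644 (minus strand). It was at 647, 669, 643 and 617 normalised counts in the NA and 791, 735, 731 and 768 in WT libraries. The groups did not overlap, and the spread within each was the smallest of the 10, with coefficients of variation of 3.36% in NA and 3.77% in WT. The means were 644 ± 21.6 and 756 ± 28.5 (SD, n = 4 each), and the log2 fold change of −0.23 had an interval of −0.41 to −0.05 with an adjusted p of 0.0702 (limma). It passed the threshold under 2 of the 20 alternatives, with adjusted p of 0.0469 when no filter on low values was used and 0.0265 when libraries were scaled to equal totals.

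**Figure D2:**
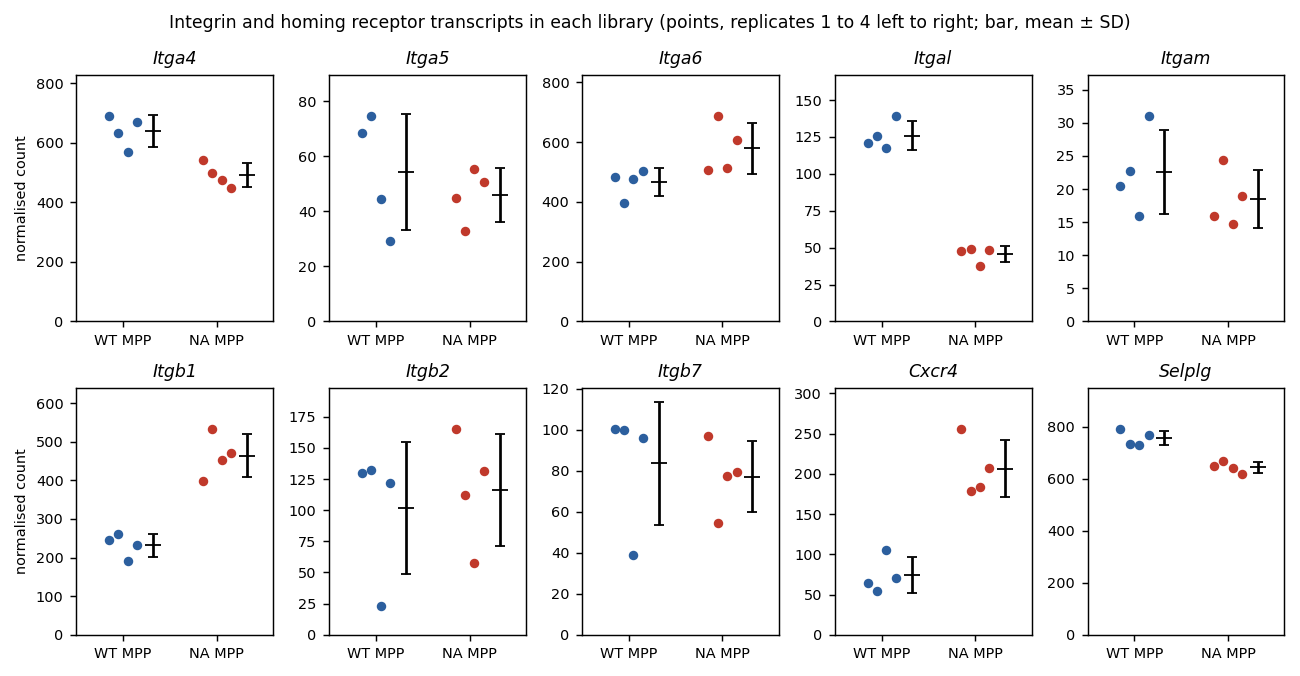
Normalised counts of the 10 transcripts in each library (points, replicates 1 to 4 from left to right) with the mean and SD of the 4 WT MPP (blue) and 4 NA MPP (red) libraries, each panel with its own linear axis from 0. The groups are widely separated for Itgb1, Cxcr4 and Itgal, and the low WT3 library is seen for Itgb2 at 22.8 and Itgb7 at 38.7.

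The spread between libraries of a group differed among the 10. Coefficients of variation were 8.21% and 8.37% for Itga4 in NA and WT, and 38.8% and 51.9% for Itgb2. Itga5 had 21.2% and 39.0%, Itgam 23.4% and 28.2%, and Itgb7 22.6% and 35.9%. These 4 are the transcripts with the widest intervals above, and they include the lowest level.

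To compare levels between genes, normalised counts were divided by the length of the longest annotated transcript in kilobases. In NA MPPs the order of these levels per kilobase was Selplg (278), Itga6 (134), Itgb1 (121), Cxcr4 (114), Itga4 (50.3), Itgb2 (39.2), Itgb7 (28.7), Itga5 (10.4), Itgal (8.75) and Itgam (3.95). In WT MPPs it was Selplg (327), Itga6 (108), Itga4 (65.5), Itgb1 (60.8), Cxcr4 (40.9), Itgb2 (34.2), Itgb7 (31.2), Itgal (24.1), Itga5 (12.3) and Itgam (4.81). Selplg stood above the others in every library of both groups. In NA, the ranges over libraries overlapped between Itga6 and Itgb1, Itgb1 and Cxcr4, Itga4 and Itgb2, Itgb2 and Itgb7, and Itga5 and Itgal. In WT they overlapped between Itga4 and Itgb1, Itgb1 and Cxcr4, Cxcr4 and Itgb2, Itgb2 and Itgb7, Itgb7 and Itgal, and Itga5 and Itgam. Such ranges do not compare the genes within a library, and differences between neighbours were not tested. Itga4 stood before Itgb1 and Cxcr4 in WT and after both in NA, and Itgal stood before Itga5 in WT and after it in NA. Among all tested genes the mean level per kilobase put Selplg at the percentile 89.7, Itga6 at 74.8, Itgb1 at 68.0 and Itgam at 4.71.

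Since an alpha and a beta subunit form 1 receptor, the log2 ratio of partner transcripts was taken within each library, where the scaling of libraries cancels except for the 1 added to each count. The ratio of the beta subunits Itgb7 and Itgb1, alternative partners of alpha4, was taken in the same way. The Itga4 to Itgb1 ratio was 0.45, −0.09, 0.07 and −0.07 in NA1 to NA4 and 1.49, 1.28, 1.57 and 1.52 in WT1 to WT4. The WT libraries thus held over 2 normalised counts of Itga4 for each of Itgb1, and the NA libraries nearer to equal numbers. Counts also depend on transcript length and do not show balance between the subunits. Per kilobase, Itga4 and Itgb1 had mean levels of 65.5 and 60.8 in WT and 50.3 and 121 in NA MPPs. The difference of the mean log2 ratios was −1.38, from 0.09 ± 0.25 in NA to 1.46 ± 0.13 in WT (SD, n = 4 each). For Itga5 to Itgb1 the mean log2 ratio was −3.32 ± 0.44 in NA and −2.16 ± 0.54 in WT, a difference of −1.16, and for Itga6 to Itgb1 it was 0.32 ± 0.09 and 1.01 ± 0.30, a difference of −0.69. For each of the 3 alpha partners of beta1, every NA ratio lay below every WT ratio. All 3 ratios share the Itgb1 count, which was itself fully separate between groups, so they are not independent of its rise or of each other. Itga5 alone passed no test (log2 fold change −0.17, limma adjusted p = 0.745). The Itgal to Itgb2 ratio was −1.77, −1.18, −0.58 and −1.42 in NA and −0.10, −0.08, 2.31 and 0.20 in WT libraries, again without overlap, and the WT3 value goes with its low Itgb2. For each of these 4 ratios the exact two-sided permutation p was 0.0286, the smallest that 70 assignments can give, and the Benjamini-Hochberg value over the 7 ratios was 0.05, which equals the threshold and does not fall below it. A ratio could fall below it only if more than 4 of the 7 were at that smallest p together. The other 3 ratios overlapped between groups: Itgb7 to Itgb1 differed by −1.05 (exact permutation p = 0.0571, adjusted 0.08), Itga4 to Itgb7 by −0.33 (exact permutation p = 0.429, adjusted 0.429) and Itgam to Itgb2 by −0.63 (exact permutation p = 0.343, adjusted 0.4). These are ratios of transcripts and say nothing of the protein pairs at the surface.

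**Figure D3:**
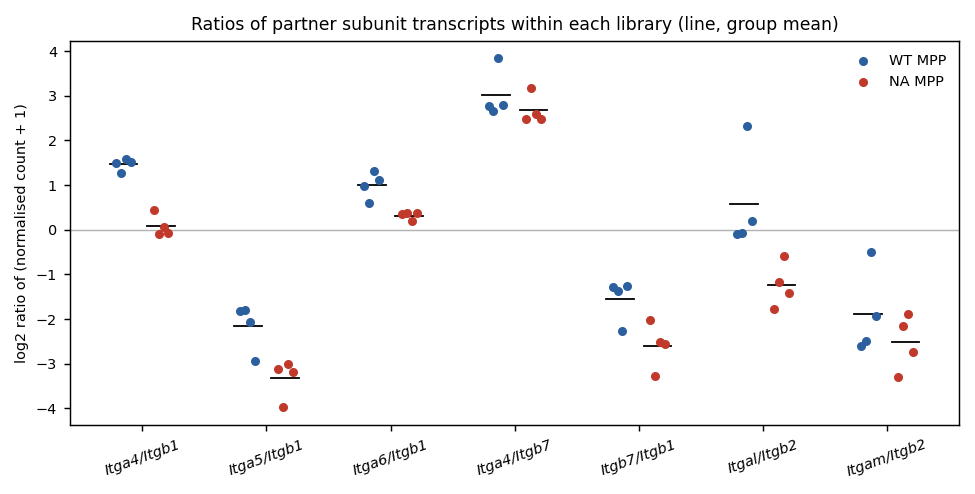
Log2 ratio of (normalised count + 1) of subunit transcripts within each library, WT MPPs in blue and NA MPPs in red, with a line at the group mean (n = 4). All ratios are of an alpha and a beta partner except Itgb7/Itgb1, the alternative beta partners of alpha4. The groups are apart for Itga4/Itgb1, Itga5/Itgb1, Itga6/Itgb1 and Itgal/Itgb2 and overlap for Itga4/Itgb7, Itgb7/Itgb1 and Itgam/Itgb2.

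The genes whose pattern over the 8 libraries was most like that of the 3 members with the smallest adjusted p were sought among all tested genes, as a description of 8 points that share their libraries and their split into groups. For Itgb1 these were Lgals8 (Pearson r = 0.998), Scaf4 (0.990) and Map4k3 (0.990). Itgal was followed most closely by Frg1 (0.994), Gcsh (0.988) and Oas2 (0.985), and Cxcr4 by Oxct1 (0.994), Htatsf1 (0.994) and Nsa2 (0.991). None of these 9 is one of the 10 transcripts or of the adhesion and homing lists described next. Those lists were written from general knowledge and do not hold every adhesion gene.

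Around the 10 transcripts, 6 lists of other adhesion and homing genes held 133 genes, of which 87 were tested. Of these 87, 25 were called, 14 higher and 11 lower in NA MPPs, beside 17.9% of all tested genes. The median log2 fold change of the lists was −0.08 against −0.01 for all genes. The calls depended on the fourth libraries: without both of them 5 genes were called, all higher, and these 5 (Cd47, Gnai3, Gnaq, Rgs1 and Gnai2) were the ones called under all 20 alternatives.

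Among 18 other integrin subunits, 5 were tested, and 2 rose and none fell, when 17.9% of all tested genes were called. Itgav, the alphaV chain that pairs with several beta subunits including beta1 and beta5, had 284 ± 55 normalised counts in NA beside 164 ± 22.1 in WT libraries (SD, n = 4 each), and limma gave a log2 fold change of 0.78 (adjusted p = 0.00417). Itgb5, its partner beta5, had 280 ± 31.7 beside 181 ± 14.7 (SD, n = 4 each), and limma gave 0.63 (adjusted p = 0.00485). Both calls were lost without the fourth libraries, at adjusted p of 0.0585 and 0.078. The platelet subunits Itga2b (−0.20, adjusted p = 0.624) and Itgb3 (−0.42, 0.362), and Itga9 (−1.21, 0.0834), were not called. Itga9 was called lower under 1 alternative, without NA1, and the platelet subunits under none. Itgb4, the other partner of alpha6, reached at most 12.5 normalised counts.

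In the list of proteins that activate integrins or link them to actin, 19 of 25 genes were tested. Of these, 2 rose and 4 fell, when 17.9% of all tested genes were called, and the median log2 fold change was −0.17. Parvg, a parvin of blood cells in the complex with integrin-linked kinase, fell from 956 ± 35.6 to 687 ± 69.6 normalised counts (SD, n = 4 each), with limma giving −0.48 as the log2 fold change (adjusted p = 0.00331), and Ptk2b, the kinase Pyk2 of focal adhesions, from 516 ± 39.6 to 340 ± 64.5 (−0.62, limma adjusted p = 0.00542). Both were called under every alternative but the one without the fourth libraries. Zyx (−0.38, adjusted p = 0.0353) and Rasgrp2, an exchange factor for Rap1 (−0.43, 0.0378), were lower, and Lyn (0.55, 0.033) and the small GTPase Rap1b (0.37, 0.0472) were higher, and each of these 4 calls was lost under 10 or more of the 20 alternatives. The abundant Fermt3, the kindlin of blood cells (−0.30, adjusted p = 0.124), Tln1, talin (−0.31, 0.135), Lims1 (0.23, 0.207) and Rap1a (0.25, 0.172) were not called. Of the 20 alternatives, Tln1 was called under 2, Fermt3 and Lims1 under 1 each, and Rap1a under none.

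Of 24 integrin and selectin ligands and related surface molecules, 17 were tested, 1 rose and 2 fell, when 17.9% of all tested genes were called. Cd47, an integrin-associated protein known as a signal against phagocytosis, rose from 1916 ± 140 to 2788 ± 141 normalised counts (SD, n = 4 each), with limma giving 0.54 as the log2 fold change (adjusted p = 0.000353). Selp, P-selectin, fell from 65.0 ± 12.5 in WT to 28.6 ± 8.95 in NA libraries (SD, n = 4 each), with limma giving −1.18 as the log2 fold change (adjusted p = 0.0111). The call of Selp was lost without the fourth libraries (adjusted p = 0.158) and without WT4 alone (0.0517). Cd34 (−0.10, adjusted p = 0.359), Cd44 (0.13, 0.363), Esam (0.08, 0.719) and F11r (0.23, 0.200) passed no test.

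All 10 enzymes or chaperones that build or sulphate selectin ligands were tested. Of these, 2 rose and none fell, when 17.9% of all tested genes were called. B4galt1 (0.45, adjusted p = 0.0177) and St3gal4 (0.40, 0.0224), a galactosyltransferase and a sialyltransferase, were higher in NA MPPs, with calls lost under 5 and 6 of the 20 alternatives. Tpst2, a tyrosine sulphotransferase (0.15, 0.345), Gcnt1 (−0.08, 0.804), St3gal6 (−0.11, 0.701) and Fut7, a fucosyltransferase (−0.52, 0.0751), were not called. Fut7 was called under 2 and Tpst2 under 1 of the 20 alternatives, and Gcnt1 and St3gal6 under none.

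Of 25 other homing receptors and Cxcl12, 7 were tested, and 18 were too low. Of the 7, 1 rose and 1 fell, when 17.9% of all tested genes were called. Of those 18, 17 never exceeded 20 normalised counts, among them Ackr3, the other Cxcl12 receptor, at most 2.77. The remaining one was Cxcl12, which was at 101 in NA3 and between 0 and 28.3 in the other libraries. Robo4, a receptor of stem and endothelial cells known for a role in homing with Cxcr4, was lower, with 243 ± 19.4 normalised counts in NA beside 332 ± 20.9 in WT libraries (SD, n = 4 each) and a log2 difference of −0.45 (limma adjusted p = 0.015). Ptger4, a prostaglandin receptor, was higher, with 241 ± 60.8 beside 145 ± 12.6 (SD, n = 4 each) and a log2 difference of 0.69 (limma adjusted p = 0.0164). These calls were lost under 3 and 4 of the 20 alternatives. The sphingosine receptors S1pr1 (0.38, adjusted p = 0.172) and S1pr2 (−0.11, 0.729), Ccrl2 (0.61, 0.110) and Cnr2 (−0.71, 0.456) were not called. Ccrl2 was called higher under 2 alternatives, with the replicate block and without WT2, and the others under none.

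The list of genes that carry or limit the signal of chemokine receptors held 31 genes, 29 of them tested. Of these, 6 rose and 4 fell, when 17.9% of all tested genes were called, and the median log2 fold change was 0.12. Cxcr4 signals through Gi proteins, and the Gi alpha subunits Gnai3 and Gnai2 were higher, Gnai3 with 1334 ± 95.5 normalised counts beside 792 ± 79.7 (SD, n = 4 each) and a log2 difference of 0.75 (limma adjusted p = 0.00012), and Gnai2 with 1199.9 ± 75.1 beside 892 ± 52.6 (SD, n = 4 each) and 0.43 (limma adjusted p = 0.00345). Gnaq had 558 ± 54.8 beside 324 ± 51.5 (SD, n = 4 each) and a log2 difference of 0.79 (limma adjusted p = 0.00112). Rgs1, which shortens Gi signals, was at 7952, 10926, 10778 and 10203 normalised counts in the NA and at 1758, 6026, 4546 and 3653 in WT libraries (log2 fold change 1.44, limma adjusted p = 0.00219). Among the genes that fell were Rac2 (−0.32, adjusted p = 0.0134), the GTPase of blood cell migration, Grk2 (−0.35, 0.0249), a kinase that desensitises receptors, Rgs10 (−1.65, 0.0279) and Rgs19 (−0.32, 0.0401), whose calls were lost under 2, 8, 10 and 11 of the 20 alternatives. The abundant Rgs2 (0.82, 0.0567), Rac1 (0.01, 0.960), Cd164 (0.25, 0.0947) and Gnb1 (−0.08, 0.593) were not called. Among the 20 alternatives, Rgs2 was called under 6 and Cd164 under 2, and Rac1 and Gnb1 under none.

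**Figure D4:**
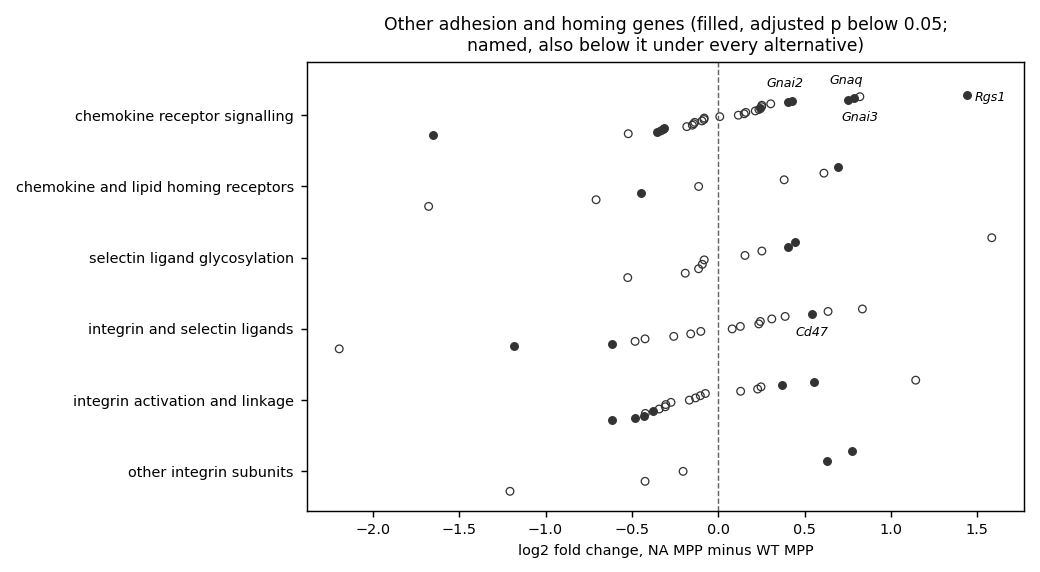
Log2 fold change, NA minus WT MPPs, of the 87 tested genes in 6 lists of other adhesion and homing genes, with filled points for limma adjusted p under 0.05. Names mark the 5 genes called under every alternative, Cd47, Gnai3, Gnaq, Rgs1 and Gnai2, which all lie to the right of 0.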

How the data were processed

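Per the labels and the study's methods, cDNA of 1000 sorted MPPs per library was amplified, made into tagmentation libraries and sequenced on 1 instrument type. The authors used RSEM and DESeq2, and the submitters' processing notes name bcl2fastq and the build mm10. Tool versions, annotation and strand use are not given in the sources used here. The deposited values bear the name of raw counts and are here taken as a signal, since they fit RSEM counts after division by a size factor: depending on the library, 98.5% to 99.1% of the low values lay within 0.1 of a whole number of steps of 0.888 to 1.18. Division by the step gave the estimated reads. Amplified reads without molecular identifiers are not independent molecules, so depth covers counting error only.

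Values were tested with limma 3.58.1 (R 4.3.3) on log2(value + 1) with a variance trend and no covariates, over genes with at least 10 in at least 4 libraries, and adjusted by Benjamini-Hochberg over 11451 genes at a threshold of 0.05. A fold change on this scale understates changes of low genes. Groups were taken from the sample titles. Ratios were tested by exact two-sided permutation and adjusted over 7. Symbols, coordinates and lengths came from GENCODE M21, which named 32916 of 37980 rows (unnamed rows held 0.779% of the summed values), and promoter sequence from RefSeq. The test was first tried on simulated data.

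The members and all gene lists were chosen with earlier results of these data known. The text names all members and, from each list, up to 4 called genes with the smallest adjusted p in each direction, up to 4 uncalled genes with the highest mean, and 3 genes of like pattern for each of 3 members. Itgb4, Ackr3, Cxcl12, Cerkl, Fos and the marker genes were named beyond this rule after their values were seen. One list gene that the rule would name is not reported here. The alternatives were other pseudocounts, filters, scalings and covariates, and libraries left out.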

Additional observations from a re-analysis of the deposited data

Results flagged for a closer look

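Within groups of 4 libraries, 8 of 36 sets of values had 1 library whose gap to the nearest other library, as a share of the whole range, was above the 95% limit of Dixon's test, where chance gives about 1.8. Of these, 5 concern WT3. Itgb2 was at 22.8 normalised counts in WT3 against 122 to 132 in the other WT libraries, and Itgb7 at 38.7 against 95.9 to 100.3. The log2 ratios that hold these genes stood apart with them: Itga4 to Itgb7 was 3.84 in WT3 against 2.65 to 2.79, Itgb7 to Itgb1 was −2.27 against −1.38 to −1.27, and Itgal to Itgb2 was 2.31 against −0.10 to 0.20. In NA3, Itgal was at 37.9 normalised counts against 47.6 to 48.9 in the other NA libraries, and the log2 ratio of Itga6 to Itgb1 was 0.19 against 0.35 to 0.37. Estimated reads were 3887886 in NA4, while NA1 to NA3 held 4909360 to 4916947.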

How the results depend on the processing

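The count of called members stayed between 3 and 5 under all 20 alternatives (3 to 4 when 1 library was left out), and no ratio passed under any of 12, of which 2 could not pass by design (the replicate block, and 3 against 3 libraries without the fourth, with a smallest exact permutation p of 0.1). Without the fourth library of both groups, 524 genes of all tested (379 higher, 145 lower) against 2053 and 5 list genes against 25 were called. Leaving out 1 library gave 1125 to 2176 genes, with 1125 without NA4 and 1279 without WT4, and 13 to 27 list genes, with 16 without NA2, 13 without NA4, 16 without WT3 and 15 without WT4. Without a variance trend 12 list genes were called. Scaling to equal totals moved the median of all genes from −0.01 to −0.08 and the share of higher calls from 56.1% to 41.4% (2240 calls), and among list genes from 56.0% to 43.5% (23 calls). The sign of uncalled members turned for Itga5 (0.014 without WT2, −0.43 to 0.014 over left-out libraries), Itgb2 (−0.23 without WT3, −0.23 to 0.68) and Itgb7 (0.11 with the GC trend removed, 0.026 without the fourth libraries, and above 0 without NA2, WT1, WT2 or WT4, −0.38 to 0.11). Itgam had no value where a mean of at least 50 was required. The alternative without the third libraries was chosen after seeing the data. Count tests by edgeR and DESeq2 were not run, since the values are not whole reads. Causes were not tested.

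Whether equal replicate numbers pair the libraries is not settled by their correlations, which were not tested. Deviations of same-numbered libraries correlated at r = 0.150, 0.000524, 0.0034 and 0.237, and those of other pairs at −0.142 to 0.179. Of the NA libraries, only NA1 and NA4 correlated best with their own number. With the replicate block 2004 genes, 4 members, 29 list genes and 0 ratios were called (smallest adjusted p of a ratio 0.175, exact permutation p = 0.125 the smallest possible).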
